A study of Danio rerio with 9 samples.

Results

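Oxidative phosphorylation genes were compared between 3 tissues of zebrafish (Danio rerio), dissected from larvae of the AB strain at 60 hours post fertilisation. The members were every gene of the count table whose symbol, ignoring case, begins with nduf, sdha to sdhd, uqcr, cox4 to cox8, atp5 or mt-, or equals cyc1, with at least 10 counts over all libraries. There were 118 of them among 32520 genes, 105 encoded in the nucleus and 13 in the mitochondrial genome. A further 4 symbols matched with fewer counts (NDUFS1, NDUFB4, ndufa4l2b and a further COX5B identifier) and were left out. The nuclear members comprised 39 complex I subunits, 8 complex I assembly factors, 5 complex II subunits, 4 complex II assembly factors, 9 complex III subunits, 19 complex IV subunits, 18 complex V subunits, 2 complex V inhibitors and COX7A2L, a factor of respiratory supercomplexes. The mitochondrially encoded members were 7 subunits of complex I, 1 of complex III, 3 of complex IV and 2 of complex V, all of them protein-coding.

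The tissues were the proepicardium (4 libraries), a cluster of progenitor cells beside the heart from which the epicardium forms, the heart tube (3 libraries) and the dorsal pericardium (2 libraries), the wall of the cavity around the heart. All fish carried the reporters epi:eGFP and myl7:mRFP, the second driven by the promoter of the heart myosin gene myl7. Each library came from a pool of at least 10 organs dissected by hand, and its cDNA was amplified with the SMARTer Ultra Low Input kit. Gene counts per library lay between 8882853 and 19397355. Since the labels do not say which larvae went into which pool, p-values measure the spread between these pools.

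Oxidative phosphorylation is the process by which mitochondria make most of the ATP of a resting aerobic cell. Complexes I to IV pass electrons from NADH and succinate to oxygen and pump protons across the inner mitochondrial membrane, except complex II, which pumps none, and complex V uses the returning protons to make ATP. Most subunits are nuclear genes whose proteins are imported, while the mitochondrial genome encodes a few core subunits of complexes I, III, IV and V, and heart muscle is known as a tissue dense in mitochondria.

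Nuclear oxidative phosphorylation transcripts took about the same share of the counts in proepicardia and the pericardium and a larger one in heart tubes. The 105 nuclear members held 1.57%, 1.12%, 1.23% and 0.879% of the gene counts in the 4 proepicardium libraries, 4.15%, 3.88% and 3.41% in the 3 heart tube libraries, and 1.19% and 1.27% in the 2 pericardium libraries. Every heart tube library lay above every other library, and the ranges of the proepicardium and the pericardium overlapped. The means were 1.20% ± 0.288 in proepicardia (SD, n = 4), 3.81% ± 0.376 in heart tubes (SD, n = 3) and 1.23% ± 0.0590 in pericardia (SD, n = 2). The proepicardium mean was 0.314 times the heart tube mean, and the heart tube mean was 3.10 times the pericardium mean. Counting error was small beside the spread between libraries, with a Wilson 95% interval of 0.873% to 0.885% in the library with the fewest counts (proepicardium 4). As PCR copies without molecular identifiers are not independent molecules, this interval covers counting error only.

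The 13 mitochondrially encoded members were arranged differently from the nuclear ones. They held 8.01%, 9.77%, 21.1% and 21.0% of the gene counts in the proepicardium libraries, 15.6%, 13.4% and 19.6% in the heart tube libraries, and 6.85% and 8.23% in the pericardium libraries. Proepicardium 1 and 2 lay below all heart tube libraries and proepicardium 3 and 4 above them, so these tissues overlapped, while the heart tube lay above the pericardium in every library. For each count of a nuclear member there were 5.10 to 23.9 mitochondrially encoded counts in proepicardia, 3.45 to 5.75 in heart tubes and 5.76 to 6.47 in pericardia. In bulk tissue, fewer cells of a type and less RNA per cell cannot be told apart.

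**Figure D1:**
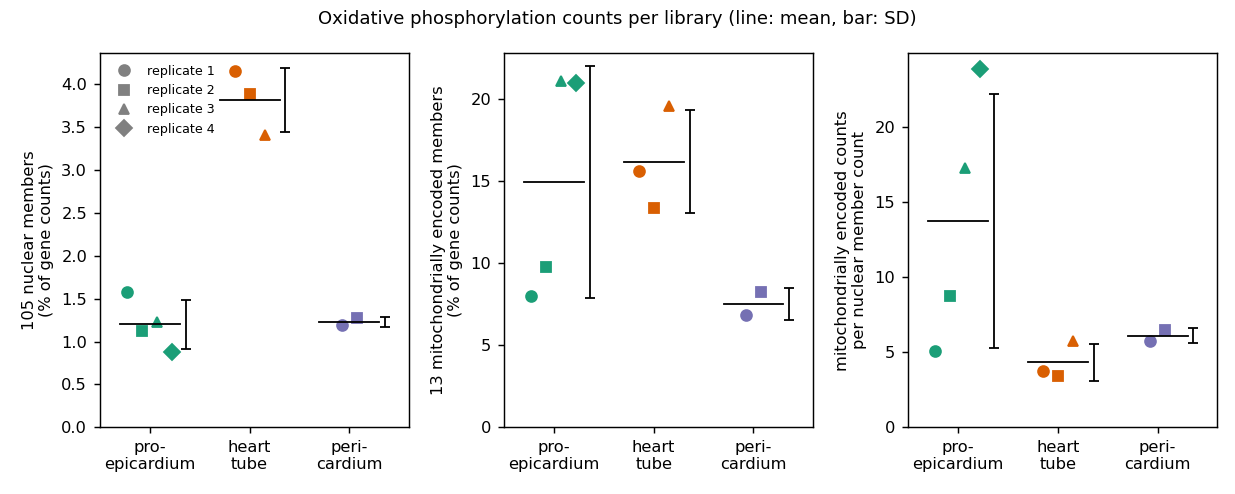
Percent of gene counts held by the 105 nuclear members (left) and the 13 mitochondrially encoded members (middle), and the ratio of the 2 sums (right), for every library, with the tissue mean (line) and SD (bar). The heart tube libraries stand above all others on the left, at 3.41% to 4.15%, whereas on the middle panel the proepicardium spreads from 8.01% to 21.1% across the heart tube values.

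The dissections were checked against markers of the cell types they could hold. The cardiomyocyte list, among its 8 tested genes MYL7 and NKX2-5, took 0.0140% to 0.0570% of the gene counts in proepicardia, 4.10% to 5.0% in heart tubes and 0.00416% to 0.0143% in pericardia. The sum of the epidermal list, of which 9 genes were tested, was 1.16% to 4.46% in proepicardia, 0.0214% to 0.520% in heart tubes (heart tube 1 the highest) and 5.13% to 6.19% in pericardia. Between proepicardium and heart tube 7 of the 9 epidermal genes were higher and 5 of 6 endocardial and endothelial genes lower, and all 5 tested genes of ionocytes, the mitochondria-rich cells of fish skin, were higher. Of all genes tested 16.8% were higher and 12.7% lower in this comparison. The ionocyte sum was 0.00102% to 0.0160% in proepicardia, 4.31e-05% to 0.000139% in heart tubes and 0.00962% to 0.0144% in pericardia. The epicardial list, with TCF21, TBX18 and the WT1 genes, took 0.00121% to 0.00468% in proepicardia and 0.00170% to 0.0109% in heart tubes, which overlapped. In pericardia it took 0.000554% to 0.000886%, and WT1 had no count in heart tubes. Of its 4 tested genes 1 was higher in proepicardia than in heart tubes (all genes 16.8%) and none lower. The median log2 fold change of the 4, proepicardium over heart tube, was 0.53, while the mean of the sum was higher in heart tubes. The skeletal muscle sum was 0.0137% to 0.0570% in proepicardia, 0.116% to 0.155% in heart tubes and 0.00648% to 0.00888% in pericardia. Of its 6 tested genes, ckma and ACTC1 (ENSDARG00000057911) were lower in proepicardia than in heart tubes and higher in heart tubes than in pericardia, and the other 4 were not called. The median log2 fold change of the 6, proepicardium over heart tube, was 1.39, opposite in direction to the sum. As the cardiomyocyte list names an actc1 gene too, ACTC1 cannot be taken as particular to skeletal muscle. The erythroid sum was 0.0486% to 0.244% in proepicardia, 0.0956% to 0.4999% in heart tubes and 0.0210% to 0.0312% in pericardia. Of its 4 tested genes 3 were higher in heart tubes than in pericardia (all genes 11%). The liver sum was at most 0.0318% in proepicardia, 0.00880% in heart tubes and 0.00274% in pericardia. These marker levels moved with the tissues, and their part in the results below was not tested.

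Of 103 nuclear members tested, 93 differed between proepicardium and heart tube, 91 of them lower in proepicardia and 2 higher. The test was edgeR's quasi-likelihood test over all 17003 genes that passed a low-count filter, with Benjamini-Hochberg adjusted p under 0.05 as the threshold. Among all genes tested 29.4% were called in this comparison, 16.8% higher and 12.7% lower. The median log2 fold change of the nuclear members, proepicardium over heart tube, was -1.69, with a range of -5.57 to 2.14, and that of all genes tested was 0.17. All 4 proepicardium libraries lay below all 3 heart tube libraries in 95 of the 103, against 16% of all genes tested, and above them in 2, against 19.8%. In each of the other settings tried the count of nuclear members called stayed between 88 and 97, and 87 of the 93 were called in every one of them.

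Heart tube and pericardium differed in 84 of the 103 nuclear members, 82 higher in heart tubes and 2 lower, where 27.1% of all genes were called, 11% higher and 16.1% lower. The median log2 fold change, heart tube over pericardium, was 1.64, against -0.09 over all genes tested. All heart tube libraries lay above both pericardium libraries in 95 of the 103, against 25.2% of all genes, and below both in 2, against 32.9%. This count rests on both pericardium libraries, since 36 of the 84 were called without pericardium 1 and 50 without pericardium 2. All genes called numbered 2315 without pericardium 1 and 2231 without pericardium 2, against 4613 with both, so calls were also lost outside the members. Both comparisons share the heart tube libraries.

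Between proepicardium and pericardium none of the 103 nuclear members was called by edgeR, and none of all genes was (0%). At an unadjusted p under 0.05 there were 2 nuclear members, where 4.91% of all genes passed. The median log2 fold change of the nuclear members, proepicardium over pericardium, was -0.08, within -1.59 to 1.03 (higher in all proepicardium libraries for 1, against 7.65% of all genes, and lower in all for 5, against 7.75%), and their median standard error was 0.34. DESeq2 and limma-voom called none of the nuclear members either, while DESeq2 called 91 of all genes and limma-voom 7.

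By mean level, the heart tube was the highest tissue for 99 of the 103 nuclear members, the proepicardium for 2 and the pericardium for 2. In 94 of them all 3 heart tube libraries lay above all 6 others, an arrangement held by 14.9% of all genes tested. The lowest mean was in proepicardia for 62 and in pericardia for 38. Within a tissue the levels of the members also differed by library. How many of all genes had the same order was not counted, so the next counts cannot be called particular to the members. Proepicardium 1 was the highest of its tissue in 80 of the 103 and proepicardium 4 the lowest in 78, heart tube 1 was the highest in 64, and pericardium 2 exceeded pericardium 1 in 91. The SD over the mean had a median of 28.3% in proepicardia, 14.9% in heart tubes and 14.8% in pericardia.

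**Figure D2:**
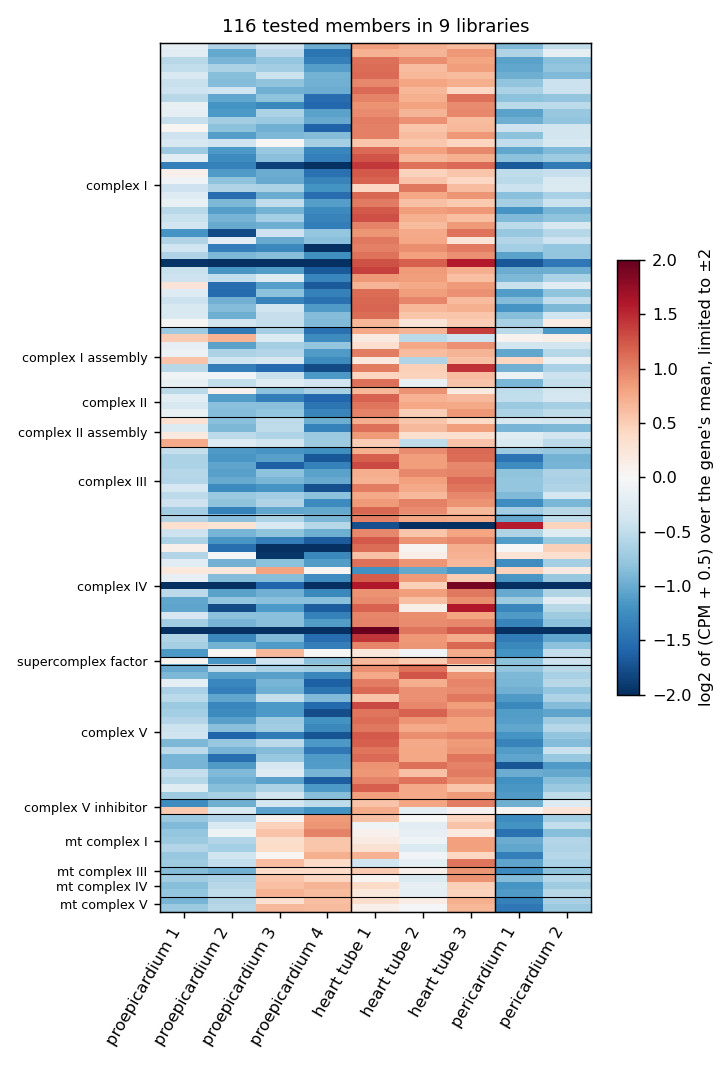
Level of the 116 tested members in the 9 libraries, as log2 of CPM plus 0.5 over the gene's mean, limited to 2 either way. Rows are genes grouped by complex and columns are libraries, with proepicardium left, heart tube in the middle and pericardium right. Red fills the heart tube columns in 94 of the 103 nuclear rows that lie there above all other libraries, whereas in the 13 mitochondrially encoded rows at the bottom proepicardium 3 and 4 stand above proepicardium 1 and 2.

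Complex I, NADH dehydrogenase, is the entry point for electrons from NADH. Of its 38 tested nuclear subunits, grouped by symbol, 37 were lower in proepicardia than in heart tubes and none higher, with a median log2 fold change of -1.65. All 38 stood lower in every proepicardium library than in any heart tube library, an arrangement held by 16% of all genes tested. Beside these and the following counts by complex, 12.7% of all genes tested were called lower and 16.8% higher in proepicardia than in heart tubes. Between heart tube and pericardium 11% of all genes tested were called higher in heart tubes and 16.1% lower. The exception to the calls was ndufv3, picked out after its values were seen, at -0.88 ± 0.31 (edgeR adjusted p = 0.051). Against the pericardium 31 of the 38 were higher in heart tubes and none lower, with a median of 1.60.

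Among the genes grouped with complex I by symbol, the smallest p-values in the comparison with the proepicardium belonged to ndufa4b and NDUFB7. NDUFB7, an accessory subunit on the outer side of the inner membrane, had 75.2, 75.9, 53.1 and 49.4 CPM (counts over the library size, scaled to a common total by edgeR's TMM method) in proepicardia, 523, 417 and 429 CPM in heart tubes and 60.6 and 73.1 CPM in pericardia. The heart tube libraries stood several times above all others, which overlapped. Its log2 fold change was -2.85 ± 0.29 between proepicardium and heart tube (edgeR adjusted p = 4.81e-05) and 2.77 ± 0.37 between heart tube and pericardium (edgeR adjusted p = 0.000355). NDUFB8, another accessory subunit, had 473, 202, 223 and 157 CPM in proepicardia, 1041, 608 and 647 CPM in heart tubes and 312 and 322 CPM in pericardia. Proepicardium 1 and heart tube 1 stood high within their tissues. The difference between proepicardium and heart tube was called, at -1.54 ± 0.39 (edgeR adjusted p = 0.0116), and that between heart tube and pericardium was not, at 1.27 ± 0.49 (edgeR adjusted p = 0.0735).

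NDUFA4, named for complex I and known in mammals as a subunit of complex IV, has a second copy in the table, ndufa4b. The ndufa4 genes were grouped with complex I by symbol, so the counts for complex I include them and those for complex IV do not. NDUFA4 had 268, 201, 210.1 and 189 CPM in proepicardia, 713, 633 and 609 CPM in heart tubes and 211 and 272 CPM in pericardia. ndufa4b had 40.6, 16.8, 18.8 and 19.9 CPM in proepicardia, 386, 367 and 481 CPM in heart tubes and 49.2 and 58.8 CPM in pericardia. Both copies were highest in heart tubes without overlap, and ndufa4b alone was also lower in every proepicardium library than in either pericardium library. The log2 fold change between proepicardium and heart tube was -1.59 ± 0.26 for NDUFA4 (edgeR adjusted p = 0.00108) and -4.10 ± 0.37 for ndufa4b (edgeR adjusted p = 2.53e-05). Between proepicardium and pericardium ndufa4b stood at -1.17 ± 0.38 (edgeR adjusted p = 0.919). Without correction for gene length, ndufa4b took 7.70% to 13.1% in proepicardia, 35.1% to 44.1% in heart tubes and 17.8% to 18.9% in pericardia, of the counts of the ndufa4 genes. The shares of family counts given for other copies are likewise not per length. NDUFA4L2, a related gene, had at most 18 counts in a library and was not tested.

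Of the 8 assembly factors of complex I, proteins that help build it without staying in it, 4 were lower in proepicardia than in heart tubes (NDUFAF1, NDUFAF3, NDUFAF4 and NDUFAF6) and none was higher. NDUFAF6 had 9.53, 5.23, 4.54 and 3.76 CPM in proepicardia, 29.6, 20.1 and 39.6 CPM in heart tubes and 7.07 and 8.95 CPM in pericardia, and the heart tube libraries stood above all others. Its log2 fold change was -2.36 ± 0.39 between proepicardium and heart tube (edgeR adjusted p = 0.00102). NDUFAF1 stood at -2.03 ± 0.33 in the same comparison (edgeR adjusted p = 0.000972) and NDUFAF4 at -1.39 ± 0.32 (edgeR adjusted p = 0.00727). NDUFAF2 was the only nuclear member other than COX4I2 and COX7A2 (ENSDARG00000110700) with a positive value in that comparison, at 0.33 ± 0.42 (edgeR adjusted p = 0.593). Against the pericardium 5 of the 8 were higher in heart tubes, the same 4 and NDUFAF8.

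Complex II, succinate dehydrogenase, also works in the citric acid cycle and is encoded in the nucleus alone. All 4 tested subunits (SDHA, SDHB, SDHC and SDHD) were lower in proepicardia than in heart tubes. SDHB, the iron-sulphur subunit, had 94.6, 50.6, 41.7 and 36.1 CPM in proepicardia, 249.7, 178 and 174 CPM in heart tubes and 78.1 and 87.2 CPM in pericardia, with the heart tube above all others. Its log2 fold change was -1.84 ± 0.36 between proepicardium and heart tube (edgeR adjusted p = 0.00257) and 1.28 ± 0.44 between heart tube and pericardium (edgeR adjusted p = 0.0508). SDHC and SDHD (ENSDARG00000030139), the membrane anchors, were higher in heart tubes than in pericardia, at 1.58 ± 0.38 (edgeR adjusted p = 0.00987) and 1.37 ± 0.39 (edgeR adjusted p = 0.023), while SDHA and SDHB were not called there. A second SDHD identifier (ENSDARG00000055712) had at most 6 counts in a library and was not tested.

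Among the 4 assembly factors of complex II, SDHAF2, SDHAF3 and SDHAF4 were lower in proepicardia than in heart tubes and sdhaf1 was not called. SDHAF3 had 36.4, 23.3, 30.8 and 17.0 CPM in proepicardia, 94.7, 69.5 and 79.0 CPM in heart tubes and 22.8 and 23.4 CPM in pericardia. It was the only one of the 4 also called between heart tube and pericardium, at 1.81 ± 0.39 (edgeR adjusted p = 0.00519). SDHAF4 stood at -0.90 ± 0.30 between proepicardium and heart tube (edgeR adjusted p = 0.0437).

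Complex III, the cytochrome bc1 complex, passes electrons from coenzyme Q to cytochrome c. All 9 of its nuclear members were lower in proepicardia than in heart tubes and higher in heart tubes than in pericardia, with medians of -1.91 and 1.64. UQCR10, a small subunit, had 130.1, 90.4, 95.3 and 62.2 CPM in proepicardia, 463, 362 and 438 CPM in heart tubes and 72.5 and 105 CPM in pericardia. Its heart tube libraries exceeded the others by a wide gap, at -2.16 ± 0.31 between proepicardium and heart tube (edgeR adjusted p = 0.000436) and 2.25 ± 0.40 between heart tube and pericardium (edgeR adjusted p = 0.00192). The core protein gene uqcrc2a had 26.0, 16.4, 20.4 and 20.8 CPM in proepicardia, 95.2, 82.0 and 66.9 CPM in heart tubes and 26.0 and 28.8 CPM in pericardia. It had the smallest p of the complex in the first comparison, at -1.96 ± 0.27 (edgeR adjusted p = 0.000331). UQCRH, the hinge protein, stood at -1.49 ± 0.26 (edgeR adjusted p = 0.00154) and UQCRQ at -1.66 ± 0.28 (edgeR adjusted p = 0.00124).

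Complex V, ATP synthase, makes the ATP. All 18 tested subunits were lower in proepicardia than in heart tubes, at -2.24 to -1.45 on the log2 scale, and all 18 were higher in heart tubes than in pericardia, at 1.48 to 2.41. ATP5F1B, the catalytic beta subunit, had 288, 249, 252 and 217 CPM in proepicardia, 907, 1279 and 994 CPM in heart tubes and 287 and 341 CPM in pericardia. The heart tube libraries stood well above the rest, and of the proepicardium libraries proepicardium 1 alone reached the level of pericardium 1. The log2 fold change of ATP5F1B was -2.08 ± 0.27 between proepicardium and heart tube (edgeR adjusted p = 0.000216). The values in that comparison were -2.21 ± 0.30 for ATP5MG, a subunit of the membrane part (edgeR adjusted p = 0.000286), and -2.24 ± 0.30 for ATP5PB of the stalk that holds the catalytic part in place (edgeR adjusted p = 0.000289). ATP5PO, a further stalk subunit, had 845, 369, 424 and 338 CPM in proepicardia, 2621, 2121 and 2202 CPM in heart tubes and 492 and 645 CPM in pericardia, with proepicardium 1 apart from its tissue yet below every heart tube library. For atp5md, a small membrane subunit with the smallest p of the complex between heart tube and pericardium, there were 74.3, 64.2, 111 and 65.2 CPM in proepicardia, 264, 306 and 284 CPM in heart tubes and 43.0 and 64.5 CPM in pericardia. Its log2 fold change between heart tube and pericardium was 2.41 ± 0.39 (edgeR adjusted p = 0.00106).

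The ring through which protons flow is made of subunit c, for which the table holds 3 genes. atp5mc1 averaged 300.1 ± 73.6 CPM in proepicardia (SD, n = 4), 1059 ± 115 CPM in heart tubes (SD, n = 3) and 335 ± 108 CPM in pericardia (SD, n = 2). The log2 fold changes between proepicardium and heart tube were -1.82 ± 0.30 for atp5mc1 (edgeR adjusted p = 0.00108), -1.58 ± 0.28 for ATP5MC3 (edgeR adjusted p = 0.00171) and -2.06 ± 0.28 for atp5mc3b (edgeR adjusted p = 0.000344). Of the family's counts atp5mc3b took 38.3% to 48.8% in proepicardia, 46.8% to 51.4% in heart tubes and 43.3% to 48.6% in pericardia.

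The inhibitors of complex V are small proteins that bind the enzyme and block its reverse reaction. In the main edgeR fit the copy atp5if1a was called in both comparisons with the heart tube, and the copy atp5if1b in neither. atp5if1a had 43.1, 52.3, 80.9 and 72.8 CPM in proepicardia, 154, 180.2 and 211 CPM in heart tubes and 52.6 and 86.3 CPM in pericardia. atp5if1b had 606, 341, 203 and 183 CPM in proepicardia, 706, 366 and 443 CPM in heart tubes and 435 and 503 CPM in pericardia. The heart tube stood above all others for atp5if1a, and for atp5if1b the 3 tissues overlapped. atp5if1a was lower in proepicardia than in heart tubes, at -1.55 ± 0.32 (edgeR adjusted p = 0.00361), and atp5if1b was not called, at -0.60 ± 0.42 (edgeR adjusted p = 0.317), nor between heart tube and pericardium, at 0.11 ± 0.51 (edgeR adjusted p = 0.906). Without proepicardium 1 the first value of atp5if1b was -1.06 and was called (edgeR adjusted p = 0.0395). The difference between the copies was not tested. Proepicardium 1 was the highest proepicardium library for atp5if1b and the lowest for atp5if1a.

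**Figure D3:**
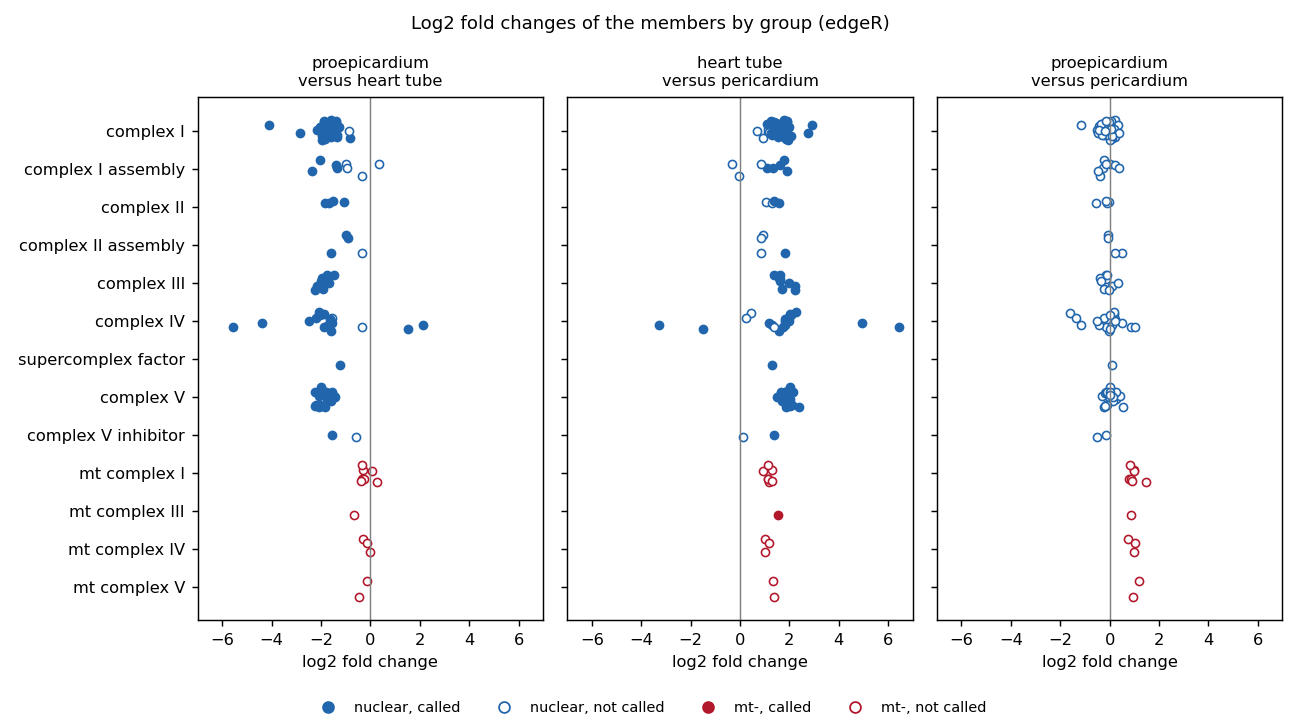
Log2 fold change of each tested member in the 3 comparisons, by group, with nuclear members in blue and mitochondrially encoded ones in red, filled where edgeR's adjusted p was under 0.05. Most nuclear members sit near the medians of -1.69 between proepicardium and heart tube and 1.64 between heart tube and pericardium and around -0.08 between proepicardium and pericardium. The extremes are cox7a1 and COX4I2 of complex IV, at -5.57 and 2.14 between proepicardium and heart tube and at 6.43 and -3.29 between heart tube and pericardium.

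Complex IV, cytochrome c oxidase, hands the electrons to oxygen and held both the most extreme members and the only ones called in the other direction. Of its 19 nuclear genes 14 were lower and 2 higher in proepicardia than in heart tubes, and 14 were higher and 2 lower in heart tubes than in pericardia. Several of its subunits have more than 1 gene in the table. In mammals some of these copies are known as forms of heart and skeletal muscle (COX7A1, COX8B) or of lung and low oxygen (COX4I2). Whether the zebrafish genes play the same roles is not given in the sources used here.

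Subunit IV has 3 genes. COX4I1 had 242, 206, 236 and 195 CPM in proepicardia, 736, 629 and 613 CPM in heart tubes and 182 and 261 CPM in pericardia. cox4i1l had 1.13, 1.08, 7.55 and 2.54 CPM in proepicardia, 73.2, 33.4 and 90.9 CPM in heart tubes and 1.60 and 2.78 CPM in pericardia. Both were highest in all heart tube libraries. COX4I2 had 36.0, 34.4, 22.9 and 19.0 CPM in proepicardia, 8.07, 4.22 and 6.77 CPM in heart tubes and 85.7 and 38.7 CPM in pericardia. Its order was the reverse, with every heart tube library below every other library and every proepicardium library below both pericardium libraries.

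The log2 fold change of COX4I2 was 2.14 ± 0.40 between proepicardium and heart tube (edgeR adjusted p = 0.00213) and -3.29 ± 0.45 between heart tube and pericardium (edgeR adjusted p = 0.000412). It was -1.15 ± 0.40 between proepicardium and pericardium (edgeR adjusted p = 0.946), and -0.38 without pericardium 1, the higher library. COX4I1 stood at -1.58 ± 0.26 between proepicardium and heart tube (edgeR adjusted p = 0.00107) and cox4i1l at -4.40 ± 0.69 (edgeR adjusted p = 0.001). Of all counts of these 3 genes COX4I2 took 8.58% to 14.3% in proepicardia, 0.633% to 0.988% in heart tubes and 12.8% to 31.8% in pericardia. The share of cox4i1l was 0.405% to 2.83% in proepicardia, 5.01% to 12.8% in heart tubes and 0.595% to 0.920% in pericardia.

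Subunit VIIa showed a like split over cox7a1 and the COX7A2 identifiers. cox7a1 had 0.113, 0.581, 1.54 and 0.663 CPM in proepicardia, 50, 25.9 and 29.0 CPM in heart tubes and 0.301 and 0.522 CPM in pericardia. Outside the heart tube it reached at most 1.54 CPM, and proepicardium 1 lay below the level that 3 counts would give. Its log2 fold change was the largest of all members in both comparisons with the heart tube, at -5.57 ± 0.63 between proepicardium and heart tube (edgeR adjusted p = 9.6e-05) and 6.43 ± 0.91 between heart tube and pericardium (edgeR adjusted p = 0.000475).

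COX7A2 (ENSDARG00000110700) had 48.0, 48.3, 72.0 and 42.9 CPM in proepicardia, 17.6, 20.0 and 18.2 CPM in heart tubes and 57.2 and 47.0 CPM in pericardia. All heart tube libraries lay below all others. COX7A2 (ENSDARG00000053217) had 263, 158, 173 and 140.3 CPM in proepicardia, 659, 565 and 479 CPM in heart tubes and 129 and 190.2 CPM in pericardia, the heart tube being the highest. The log2 fold change between proepicardium and heart tube was 1.51 ± 0.28 for the first identifier (edgeR adjusted p = 0.00229) and -1.63 ± 0.31 for the second (edgeR adjusted p = 0.00226). With the heart tube set over the pericardium, the first stood at -1.49 ± 0.32 (edgeR adjusted p = 0.0055), a call that ended without pericardium 1 (edgeR adjusted p = 0.105). The first identifier took 15.4% to 29.2% of the subunit's counts in proepicardia, 2.42% to 3.46% in heart tubes and 19.8% to 30.6% in pericardia. Reads that match both copies equally could be given to either or to neither, and how they were treated is not given in the sources used here.

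**Figure D4:**
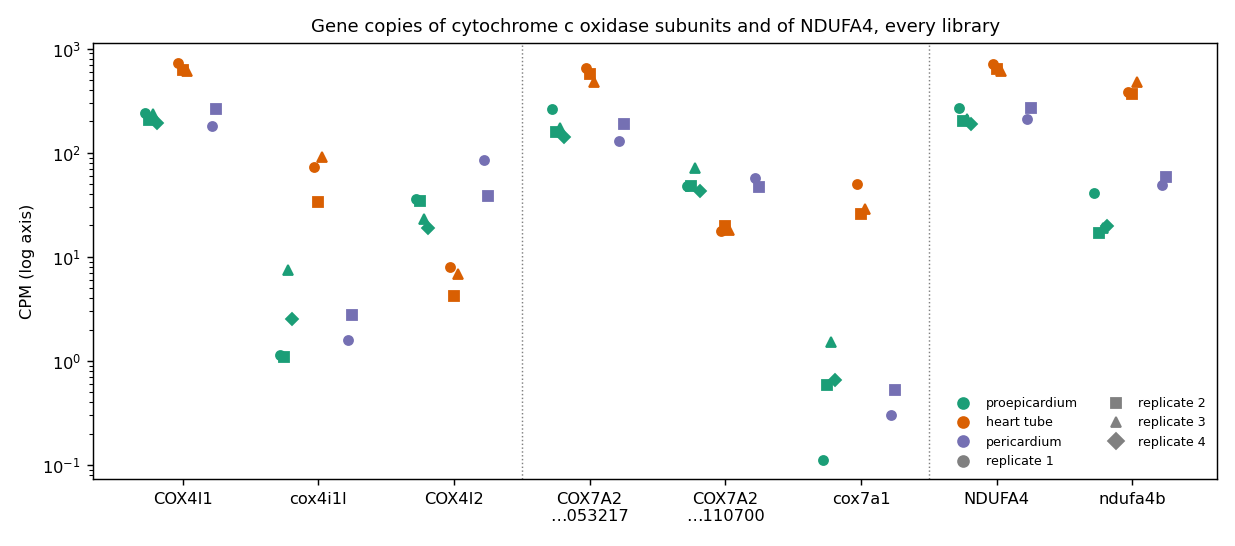
CPM of the gene copies of subunit IV, subunit VIIa and NDUFA4 in every library, on a log axis, coloured by tissue with proepicardium left, heart tube in the middle and pericardium right within each gene. COX4I2 and COX7A2 (ENSDARG00000110700) are lowest in heart tubes, at 4.22 to 8.07 and 17.6 to 20.0 CPM, and the other 6 genes are highest there.

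In the remaining families of complex IV with several genes the copies were tested one by one. COX5A and cox5aa, of subunit Va, were both lower in proepicardia than in heart tubes, at -1.54 ± 0.27 (edgeR adjusted p = 0.00153) and -1.87 ± 0.28 (edgeR adjusted p = 0.000568). The same held for cox6b1 and cox6b2, of subunit VIb, at -2.47 ± 0.38 (edgeR adjusted p = 0.000722) and -1.70 ± 0.30 (edgeR adjusted p = 0.00152). cox6b1 varied among the heart tube libraries, with 183, 109.9, 172 and 120.0 CPM in proepicardia, 866, 416 and 1152 CPM in heart tubes and 153 and 259 CPM in pericardia, and heart tube 2 was the low one.

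COX5B (ENSDARG00000015978), of subunit Vb, had 542, 374, 321 and 265 CPM in proepicardia, 1969, 1556 and 1633 CPM in heart tubes and 386 and 503 CPM in pericardia. It took at least 98.0% of its family's counts in every library, and the second COX5B identifier (ENSDARG00000068738) was not called in any comparison. The first identifier stood at -2.19 ± 0.31 between proepicardium and heart tube (edgeR adjusted p = 0.000401). In subunit VIa cox6a1 (ENSDARG00000022438) stood at -1.70 ± 0.26 in that comparison (edgeR adjusted p = 0.000679) and COX6A1 (ENSDARG00000054588) was not called, at -1.57 ± 0.65 (edgeR adjusted p = 0.092). In subunit VIII cox8a was lower in proepicardia, at -2.02 ± 0.28 (edgeR adjusted p = 0.000343), while cox8b was not called, at -0.36 ± 0.59 (edgeR adjusted p = 0.692). cox8b had 0.959, 2.82, 4.54 and 2.76 CPM in proepicardia, 3.21, 2.56 and 4.89 CPM in heart tubes and 0.903 and 1.83 CPM in pericardia, and the tissues overlapped.

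The single-gene subunits cox6c, cox7b and COX7C of complex IV were also lower in proepicardia than in heart tubes, with cox6c at -1.86 ± 0.26 (edgeR adjusted p = 0.000371), cox7b at -2.08 ± 0.32 (edgeR adjusted p = 0.00067) and COX7C at -1.62 ± 0.32 (edgeR adjusted p = 0.00323). cox7b had 591, 367, 486 and 313 CPM in proepicardia, 2425, 1649 and 1505 CPM in heart tubes and 343 and 437 CPM in pericardia. COX7A2L, which joins complexes III and IV into supercomplexes, was lower in proepicardia than in heart tubes at -1.22 ± 0.33 (edgeR adjusted p = 0.0152) and higher in heart tubes than in pericardia at 1.31 ± 0.41 (edgeR adjusted p = 0.0326).

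None of the 13 mitochondrially encoded members was called between proepicardium and heart tube by edgeR, and none passed at an unadjusted p under 0.05 (all genes 40.2%). Their log2 fold changes ran from -0.67 to 0.28 with a median of -0.29, and the libraries of the tissues overlapped in all 13. MT-CYB, cytochrome b of complex III, had 10842, 10125, 25692 and 25707 CPM in proepicardia, 28532, 21264 and 36597 CPM in heart tubes and 8212 and 11365 CPM in pericardia. Proepicardium 3 and 4 lay among the heart tube libraries and proepicardium 1 and 2 among the pericardium libraries. MT-CO1, the catalytic subunit of complex IV, had 19391, 20443, 46159.6 and 41953 CPM in proepicardia, 32446, 25889.6 and 58750.1 CPM in heart tubes and 17190.2 and 21123 CPM in pericardia. In all 13 members proepicardium 3 and 4 exceeded proepicardium 1 and 2, whereas among the 103 nuclear members this was so in 4 and the reverse in 29. The share of all genes tested with either arrangement was not counted. Some marker sums split the same libraries and others did not. The erythroid list took 0.0731%, 0.0486%, 0.244% and 0.211% of the gene counts in proepicardium 1 to 4, and the epidermal list 4.14%, 4.46%, 1.16% and 2.73%. The skeletal muscle and epicardial lists and the rows of the constructs were also higher in proepicardium 3 and 4, and the ionocyte list was lower. The constructs stood at 0.00392% and 0.00376% of the counts, against 0.000413% and 0.000321% in proepicardium 1 and 2. The cardiomyocyte list, at 0.0188%, 0.0181%, 0.0570% and 0.0140% in proepicardium 1 to 4, did not split this way. Neither did the liver list or the endocardial and endothelial list. The part of any of these in the split was not tested.

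Between heart tube and pericardium all 13 were higher in every heart tube library than in either pericardium library, with log2 fold changes of 0.93 to 1.56 and a median of 1.18, while 25.2% of all genes tested had this arrangement. Of the 13, 9 had an unadjusted p under 0.05 by edgeR (all genes 38%). After adjustment MT-CYB was called, at 1.56 ± 0.51 (edgeR adjusted p = 0.04), where 27.1% of all genes were called. The other 12 were not, with an adjusted p of up to 0.218. The number called was 0 without any 1 of the heart tube or pericardium libraries and 0 with the replicate number as a block, and it was 7, 5, 1 and 4 without proepicardium 1, 2, 3 and 4. It was 5 with DESeq2 and 12 with limma-voom, where all genes called numbered 5579 and 6926, against 4613 in the main edgeR fit. With no low-count filter it was 9, and with only the tissues compared 10. All genes called there numbered 4388 and 4542, fewer than in the main fit.

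Between proepicardium and pericardium all 13 had positive log2 fold changes, from 0.74 to 1.46 with a median of 0.94. The libraries of these tissues nevertheless overlapped in 11 of the 13. The higher level was not shared evenly by the proepicardium libraries. The 13 together held 8.01% and 9.77% of the gene counts in proepicardium 1 and 2, against 6.85% and 8.23% in pericardia. In proepicardium 3 and 4 they held 21.1% and 21.0%. None of the 13 was called by edgeR, which called 0% of all genes tested in this comparison. At an unadjusted p under 0.05 there were 2, MT-ND3 and mt-atp8 (all genes 4.91%), and no tool tried called any of the 13. MT-ND3, a complex I subunit, had 265, 421, 673 and 901 CPM in proepicardia, 482, 403 and 515 CPM in heart tubes and 160.4 and 249 CPM in pericardia. All its proepicardium libraries lay above both pericardium libraries, at 1.46 ± 0.48 (edgeR adjusted p = 0.942). For mt-atp8, a complex V subunit, the value was 1.19 ± 0.48 (edgeR adjusted p = 0.967).

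Of the remaining complex I genes of the mitochondrial genome, MT-ND1 had 1278, 1424, 2253 and 3884 CPM in proepicardia, 3199, 2119 and 2876 CPM in heart tubes and 891 and 1343 CPM in pericardia, and MT-ND2, MT-ND4, mt-nd4l, MT-ND5 and MT-ND6 likewise overlapped between proepicardium and heart tube and did not between heart tube and pericardium. Their log2 fold changes between heart tube and pericardium were 1.29 ± 0.50 for MT-ND1, 0.93 ± 0.52 for MT-ND2, 1.13 ± 0.48 for MT-ND4, 1.14 ± 0.54 for mt-nd4l, 1.15 ± 0.49 for MT-ND5 and 1.3 ± 0.48 for MT-ND6. The same comparison gave 1.03 ± 0.50 for MT-CO1, 1.18 ± 0.50 for MT-CO2, 1.00 ± 0.50 for MT-CO3, 1.38 ± 0.50 for MT-ATP6 and 1.33 ± 0.51 for mt-atp8. In vertebrates MT-ATP6 overlaps mt-atp8, MT-ND4 overlaps mt-nd4l and MT-ND6 lies on the opposite strand, so reads at these borders are uncertain, as the strand setting of the counting is not given in the sources used here. A gene without a symbol in the table (ENSDARG00000080337) took 9.90%, 12.3%, 15.9% and 20.4% of the gene counts in proepicardium 1 to 4. It took 12.7% to 15.7% in heart tubes and 6.48% to 8.22% in pericardia. For this gene too, proepicardium 3 and 4 exceeded proepicardium 1 and 2. It was not a member.

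**Figure D5:**
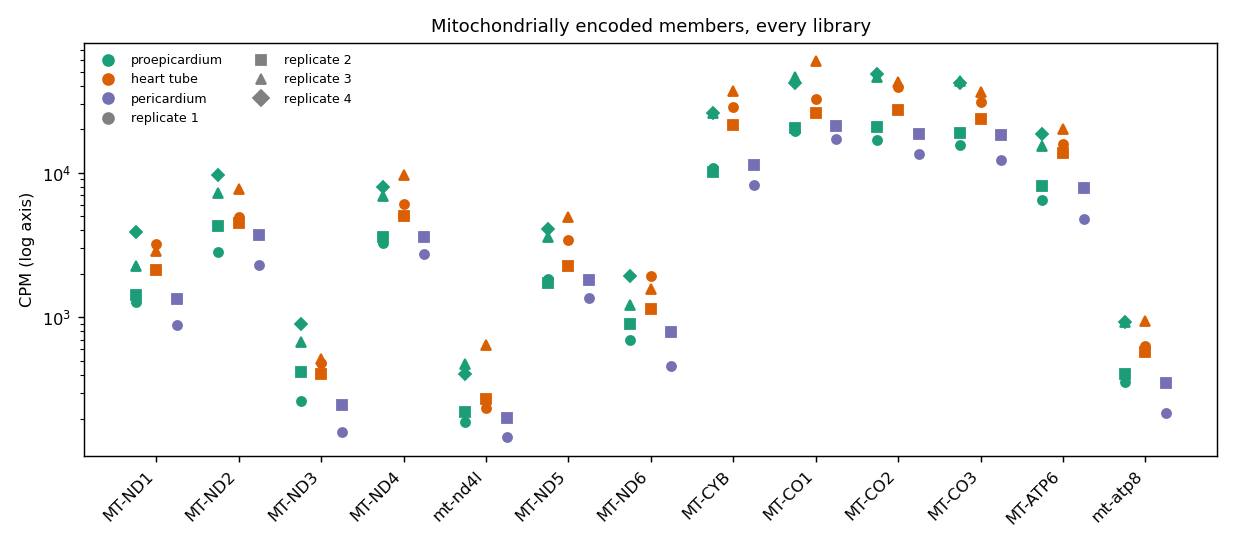
CPM, on a log axis, of the 13 mitochondrially encoded members in every library, with proepicardium left, heart tube in the middle and pericardium right within each gene and the marker giving the replicate number. In each gene proepicardium 3 and 4 (triangle and diamond) stand above proepicardium 1 and 2, and every heart tube library stands above both pericardium libraries.

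Genes of the same pathway outside the rule were counted in the same fit, in 5 lists. Beside each list, 12.7% of all genes tested were lower in proepicardia than in heart tubes and 11% higher in heart tubes than in pericardia. Of 12 tested genes for electron carriers and coenzyme Q, the lipid that carries electrons to complex III, 9 were lower in proepicardia than in heart tubes and 5 were higher in heart tubes than in pericardia. Their median log2 fold changes were -1.3 and 1.17. cycsb, a cytochrome c gene, averaged 498 ± 283 CPM in proepicardia (SD, n = 4), 2122 ± 303 CPM in heart tubes (SD, n = 3) and 402 ± 149 CPM in pericardia (SD, n = 2). It stood at -2.09 ± 0.40 between proepicardium and heart tube (edgeR adjusted p = 0.00257) and 2.40 ± 0.53 between heart tube and pericardium (edgeR adjusted p = 0.00597), and cycsa was listed at 0 in all libraries. PDSS1, which starts the coenzyme Q tail, stood at -1.66 ± 0.28 between proepicardium and heart tube (edgeR adjusted p = 0.00112).

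Of 37 assembly factors of complexes I, III, IV and V outside the rule, 19 were lower in proepicardia than in heart tubes and 13 were higher in heart tubes than in pericardia, with medians of -1.10 and 1.14. TMEM126A, a factor of complex I, stood at -1.96 ± 0.29 between proepicardium and heart tube (edgeR adjusted p = 0.000506). lyrm7, a factor of complex III, stood at -1.90 ± 0.30 (edgeR adjusted p = 0.000756), and cox17, a copper carrier for complex IV, at -1.72 ± 0.33 (edgeR adjusted p = 0.00238). For complex V, atpaf1 was lower, at -1.70 ± 0.37 (edgeR adjusted p = 0.00512), and TMEM70 was not called, at -0.32 ± 0.32 (edgeR adjusted p = 0.488). The 75 proteins of the mitochondrial ribosome, which translates the mitochondrially encoded subunits, included 52 lower in proepicardia than in heart tubes and 48 higher in heart tubes than in pericardia, with medians of -1.05 and 1.26.

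Of 20 tested regulators of mitochondrial genes and of mitochondrial DNA, 7 were lower in proepicardia than in heart tubes (all genes 12.7%). In the same list 6 were higher in heart tubes than in pericardia (all genes 11%). perm1b, a muscle regulator of the PGC-1 and ERR pathway, averaged 9.05 ± 2.07 CPM in proepicardia (SD, n = 4), 97.1 ± 18.9 CPM in heart tubes (SD, n = 3) and 7.98 ± 1.00 CPM in pericardia (SD, n = 2). It stood at -3.42 ± 0.30 between proepicardium and heart tube (edgeR adjusted p = 2.05e-05) and 3.60 ± 0.40 between heart tube and pericardium (edgeR adjusted p = 0.000122). ESRRG, a nuclear receptor of the same pathway, stood at -3.75 ± 0.67 between proepicardium and heart tube (edgeR adjusted p = 0.00174), the coactivator gene ppargc1b at -1.22 ± 0.30 (edgeR adjusted p = 0.0104) and LRPPRC, which stabilises mitochondrial messenger RNA, at -0.94 ± 0.28 (edgeR adjusted p = 0.0251). TFAM, which packs and transcribes mitochondrial DNA, was not called, at -0.77 ± 0.27 (edgeR adjusted p = 0.0548), nor was the mitochondrial RNA polymerase gene POLRMT, at 0.26 ± 0.49 (edgeR adjusted p = 0.726).

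Of 7 tested carriers of ATP, phosphate and creatine phosphate, 5 were lower in proepicardia than in heart tubes and 4 were higher in heart tubes than in pericardia. SLC25A5, which exchanges ADP and ATP across the inner membrane, averaged 2775 ± 843 CPM in proepicardia (SD, n = 4), 8858 ± 1719.7 CPM in heart tubes (SD, n = 3) and 4081 ± 42.5 CPM in pericardia (SD, n = 2). It stood at -1.67 ± 0.31 between proepicardium and heart tube (edgeR adjusted p = 0.00203). VDAC1, a channel of the outer membrane, stood at -2.57 ± 0.44 (edgeR adjusted p = 0.00133) and ckma, a creatine kinase of muscle, at -3.50 ± 0.49 (edgeR adjusted p = 0.000371). In none of these 5 lists was a gene called in the other direction. Between proepicardium and pericardium edgeR called none of the listed genes, but it called 0% of all genes tested there.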

How the data were processed

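RNA-seq counts of 9 libraries were used. The deposited table holds whole-number counts per Ensembl gene, which the authors did not normalise. The submitters' processing notes name CASAVA 1.8, fastp, STAR, featureCounts and DESeq2 and the builds GRCz11 and danRer11, with no settings. A second, normalised table was not used here. Groups and replicate numbers came from the sample labels. The column names of the counts number proepicardium 3 and 4 and heart tube 3 otherwise, and those numbers were not used as replicate numbers. The labels list 4 proepicardium libraries where the design text gives 3, and all 4 were used. Construct rows (16, at most 0.0309% of a library) stayed out of library sizes.

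Genes were filtered with filterByExpr (at least 10 counts in enough libraries, 15 in all), which left 17003, and tested with edgeR 4.0.16 in R 4.3.3 (TMM, robust quasi-likelihood fit, tissue as the only term, all 9 libraries, Benjamini-Hochberg over all genes tested). The filter passed 103 of 105 nuclear and all 13 mitochondrially encoded members. The ± after a log2 fold change is its standard error. The common coefficient of biological variation was 0.528. No pair of libraries of a tissue agreed within sampling noise (chi-square per degree of freedom 48.3 to 282). No gene lengths of the build were used, so CPM and the shares of family counts are not per length, and the member with the highest CPM of a group was named without implying a higher level per transcript.

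Alternatives were DESeq2 size factors, library sizes without mt- genes, no filter, a mean of at least 50 counts, the Wald test of DESeq2 1.42.0, voom with quality weights in limma 3.58.1, only the tissues compared, a replicate block, and each library left out. Members and gene lists were chosen with earlier results of these data known. The genes named were all mt- members, families with several copies (complex IV, atp5mc, atp5if1, ndufa4), the highest member of each other group, the 2 smallest p-values per group, comparison and direction, and every member called in the minority direction. Any others were chosen after their values were seen, and genes of the other lists were examples.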

Additional observations from a re-analysis of the deposited data

Results flagged for a closer look

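Sets of 4 proepicardium values were examined for CPM of named members, for member counts per library and for copies' shares of family counts. In 4 of these 107 sets the highest library stood apart from the other 3 by more than Dixon's 95% critical value. The ratio is the gap to the nearest value over the whole range, and chance alone exceeds that value in about 1 in 20 such sets. ndufa4b had 16.8, 18.8, 19.9 and 40.6 CPM, with proepicardium 1 the highest and a ratio of 0.869. ATP5PO had 338, 369, 424 and 845 CPM, again with proepicardium 1 the highest and a ratio of 0.831. The remaining flags rest on the same 5 counts of NDUFA4L2, and with 3 values at 0 the ratio is 1 for any other value, so they say nothing about how far that library stands apart. NDUFA4L2 was listed at 0 in 3 libraries and at 0.282 CPM in proepicardium 1, a ratio of 1, and its share of the ndufa4 counts was 0 in the same 3 and 0.0912% in proepicardium 1, likewise with a ratio of 1.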

How the results depend on the processing

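No nuclear member called between proepicardium and heart tube or between heart tube and pericardium changed sign under any alternative. The number of nuclear members called was 88 to 97 for proepicardium and heart tube (88 to 96 with a library left out) and 80 to 94 for heart tube and pericardium, where leaving out a library gave 36 to 90. Of the 84 called there, 32 were called in all alternatives and 77 in those with all libraries.

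The mitochondrially encoded members called between heart tube and pericardium numbered 9 with no low-count filter, 5 with DESeq2, 12 with limma-voom, 10 with only the tissues compared, and 0 to 7 with a library left out. All genes called there numbered 4388 with no low-count filter, 5579 with DESeq2, 6926 with limma-voom and 4542 with only the tissues compared. With a library left out they numbered 2231 to 4750. All genes called between proepicardium and pericardium numbered 9 with no low-count filter, 91 with DESeq2 and 7 with limma-voom. Over counts without mt- genes, the nuclear members held on average 1.40% in the proepicardium, 4.55% in the heart tube and 1.33% in the pericardium. The proepicardium mean then lay above the pericardium mean instead of below it, and the libraries of these tissues still overlapped. The gene without a symbol (ENSDARG00000080337) stayed in the counts without mt- genes.

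Deviations from the tissue mean correlated at -0.0179 to 0.129 in same-numbered libraries and at -0.161 to 0.161 in the others. With so few libraries per tissue these values cannot show whether the numbers pair the samples, and the labels do not say. With the replicate block 88 nuclear members were called between proepicardium and heart tube and 80 between heart tube and pericardium, with 0 mitochondrially encoded ones in each, and all genes called were 4103 and 3658.

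In the 2 comparisons with the heart tube, signs turned for uncalled members alone, 3 of them nuclear. Between proepicardium and heart tube MT-ND2 stood at -0.013 with no low-count filter and -0.34 with the replicate block, and MT-ND3 at -0.15 with the block. Leaving out a library gave -0.27 to 0.34 for MT-ND2, -0.058 to 0.51 for MT-ND3, -0.51 to 0.34 for mt-nd4l, -0.53 to 0.13 for MT-CO1, -0.39 to 0.084 for MT-CO2, -0.27 to 0.18 for MT-CO3 and -0.36 to 0.10 for mt-atp8. NDUFAF2 ranged over all alternatives from -0.019 to 0.58. Between heart tube and pericardium NDUFAF5 ranged from -0.32 to 0.47 and atp5if1b stood at -0.10 with limma-voom and at -0.17 to 0.39 with a library left out. The cause was not tested. With 2 pericardium libraries, leaving 1 out assumes that the other varies like the rest. Counts of at most 10 in at least 1 library limit ndufa9b, sdhaf1, COX5B (ENSDARG00000068738), COX6A1 (ENSDARG00000054588), cox7a1, NDUFA4L2 and SDHD (ENSDARG00000055712).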
